A study of Mus musculus with 8 samples.

Results

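Niban3, Cnn3, Cyb561a3, Slc37a2, Wdfy4, Capsl, Tmem108 and Ddx4 are 8 genes with little or no established place in early lymphoid development that read lower in Sca1+Lin- bone marrow cells of Sca1-MALT1 mice than of wild-type mice. They are 8 of the 18193 genes that the arrays measured, and 18 of the 34945 probe sets that carry a single gene symbol. RNA of sorted cells, positive for the surface marker Sca1 and negative for lineage markers, was linearly amplified and measured on Affymetrix arrays, with 3 wild-type samples and 5 samples of the transgenic line Sca1-MALT1. The transgene takes its name from the promoter of Sca1, a surface protein of stem and progenitor cells, and from MALT1, a protease and scaffold that activates NF-kB. The labels give no strain, age, sex or number of animals for a sample, and they do not say whether a sample was pooled. All values are log2 signals as the authors normalized them, and all differences are Sca1-MALT1 minus wild type.

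The members were chosen by name from this same comparison, so their falls are described here and not tested. In limma's fit over all genes, 4 of them (Niban3, Cnn3, Cyb561a3 and Slc37a2) lay past the adjusted threshold of 0.05 and 4 did not. A fall past that threshold was seen in 8 genes, 0.044% of all tested, and nothing is read from the members' count beside it. Both counts rest on single arrays: 5 genes fell past it without wild-type replicate 1, Sca1-MALT1 replicate 1 or Sca1-MALT1 replicate 3. Niban3 and Cnn3 stayed past it with each array left out in turn, Cyb561a3 only without Sca1-MALT1 replicate 2 or 4, and Slc37a2 in none of these fits. Ddx4 came past it without wild-type replicate 3, and Wdfy4 without Sca1-MALT1 replicate 5. Over all arrays, 6 members passed with an intensity trend and robust variance, where 10 of all 18193 genes fell past the threshold. With array weights 7 passed (11 genes fell), and with the replicate number as a block 0 did (0 genes). With quantile normalization, median centring, probe sets averaged or dim genes left out (9096 genes kept), 3 members passed, where 7, 7, 8 and 5 genes fell. Averaging lost Cyb561a3 of the main fit's 4, and each of the other settings lost Slc37a2. In the main fit the last member inside was Slc37a2, at a difference of -0.92, and the first outside was Tmem108, at -1.11. All these fits use the comparison from which the members were chosen. A member's passing in any of them is therefore no support for its fall.

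In bone marrow, lymphoid progenitors switch on the recombinase genes Rag1 and Rag2 to assemble antigen receptor genes, and B cell precursors pair the first heavy chain with the surrogate light chain made by Vpreb1 and Igll1. Rag1 is therefore a marker of the lymphoid part of a progenitor fraction. The 8 members come from unrelated families. Niban3 is a Niban family protein found in B cells and Cnn3 is a calponin that binds actin. Cyb561a3 is a lysosomal cytochrome that passes electrons across the membrane to reduce iron, and Slc37a2 is a sugar phosphate exchanger of the endoplasmic reticulum. Wdfy4 is a BEACH domain protein needed by type 1 dendritic cells to present cell-associated antigen, Capsl is a calcyphosine-like protein with EF-hand calcium sites, Tmem108 is a transmembrane protein known from neurons, and Ddx4, the mouse Vasa protein, is an RNA helicase of germ cells.

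Since the members read lower together with Rag1, the letters before their transcription starts are shown beside those of Rag1. RefSeq's promoter table (GRCm38.p6) matched all 8 members with 10 starts, Cyb561a3 and Tmem108 having 2 each. The 250 bases before each start were searched on both strands for the Ebf1 palindrome, for the E-box letters CAGGTG and for a second E-box form, CAGCTG, both known from E proteins. Further letters searched were GAGGAAGT, known from PU.1, TGGGAA, known from Ikaros, ATGCAAAT, the octamer of POU factors, and TGTGGT, known from Runx factors. No matches overlapped in these windows. Capitals mark the matches. The 5 windows printed are that of Rag1 (chr2:101649533-101649782, minus strand), as the reference, and those of Niban3 (chr8:71597458-71597707, plus strand), the second start of Cyb561a3 (chr19:10577198-10577447, plus strand), Capsl (chr15:9435778-9436027, plus strand) and the first-listed start of Tmem108 (chr9:103692808-103693057, minus strand), which hold the matches of 4 different motifs between them.
Rag1: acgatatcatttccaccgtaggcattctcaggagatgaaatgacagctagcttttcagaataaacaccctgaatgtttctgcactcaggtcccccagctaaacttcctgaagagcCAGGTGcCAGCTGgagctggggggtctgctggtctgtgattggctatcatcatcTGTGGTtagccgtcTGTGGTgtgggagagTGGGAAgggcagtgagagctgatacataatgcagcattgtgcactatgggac
Niban3: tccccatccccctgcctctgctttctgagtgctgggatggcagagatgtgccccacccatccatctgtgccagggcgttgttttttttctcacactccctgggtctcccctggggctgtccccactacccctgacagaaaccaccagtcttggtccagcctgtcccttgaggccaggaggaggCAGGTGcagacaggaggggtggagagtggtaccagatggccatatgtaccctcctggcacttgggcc
Cyb561a3: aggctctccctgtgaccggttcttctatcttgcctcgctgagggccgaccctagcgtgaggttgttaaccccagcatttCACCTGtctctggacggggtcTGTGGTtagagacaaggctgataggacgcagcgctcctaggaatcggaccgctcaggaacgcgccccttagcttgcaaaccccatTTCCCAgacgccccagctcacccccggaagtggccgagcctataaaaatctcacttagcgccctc
Capsl: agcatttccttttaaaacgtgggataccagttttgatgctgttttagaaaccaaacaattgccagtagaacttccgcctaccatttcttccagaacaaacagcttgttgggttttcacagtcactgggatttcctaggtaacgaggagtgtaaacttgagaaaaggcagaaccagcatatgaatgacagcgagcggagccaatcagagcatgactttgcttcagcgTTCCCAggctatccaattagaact
Tmem108: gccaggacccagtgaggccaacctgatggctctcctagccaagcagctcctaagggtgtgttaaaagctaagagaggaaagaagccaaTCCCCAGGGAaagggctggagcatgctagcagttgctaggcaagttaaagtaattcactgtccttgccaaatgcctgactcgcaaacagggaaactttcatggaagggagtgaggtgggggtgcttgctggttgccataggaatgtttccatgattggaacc

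The Rag1 window held both E-box forms and the Ikaros letters once each, and the Runx letters at 2 places. CAGGTG stood 67 to 62 bases before the Niban3 start and also before the second Cyb561a3 start, in 2 of the 10 member windows, against 17.2% of all 32851 windows in the table. TGGGAA stood in 3 of 10 (both Cyb561a3 starts and Capsl), against 21.6% of all. TGTGGT stood in 2 of 10 (the second Cyb561a3 start and Wdfy4), against 14.0%, and the Ebf1 palindrome in 1 of 10 (Tmem108), against 0.779%. The second E-box form, the PU.1 letters and the octamer, found in 13.0%, 2.44% and 1.6% of all windows, were in none of the 10. The windows of Cnn3, Slc37a2, Ddx4 and the other Tmem108 start held none of the letters searched. Base composition ran from 43.6% G and C before Capsl to 78.8% before Cnn3, with 70.4% before Ddx4, where the median of all windows was 52.4%. No motif was shared by more than 2 members, and a match is a description of letters, not a site.

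The arrays correlated at r between 0.956 and 0.983 over all genes, so no pair was identical. Xist, which is transcribed from the inactive X chromosome of females, was high in Sca1-MALT1 replicates 2 and 4 (13.09 and 12.46) and low in the other 6 arrays, over which the members' differences ran from -3.97 to -0.86. As a check of the sort, 10 of 12 listed stem and progenitor markers were measured, Kit and Cd34 among them. All 10 averaged above the array medians (6.4 to 6.48) in both groups. Ly6a, which encodes Sca1, was on the list, but its own values are not given here. Markers of mature cells were above the medians too, in both groups, with all 7 neutrophil, all 5 T cell, all 4 erythroid, 8 of 10 mature B cell and 7 of 8 macrophage genes. This is a weak check, since 11237 of all 18193 genes averaged above the medians in wild type and 11325 in Sca1-MALT1. The neutrophil list mean was high, at 12.52 to 13.23 in wild-type and 10.91 to 14.38 in Sca1-MALT1 arrays. In wild type the T cell, erythroid and macrophage list means reached at most 9.25, 9.38 and 8.55. Beside the members, 14 of 17 early B lineage markers were lower in Sca1-MALT1, with a median difference of -1.2 against 0.0 for all genes, of which 49.3% were lower. The mean signal of that list ran from 10.05 to 10.75 in wild-type and from 8.47 to 9.17 in Sca1-MALT1 arrays. In limma's fit 3 of the 17 fell, namely Igll1, Vpreb1 and Rag2, with differences of -3.92, -5.55 and -2.46, against 0.044% of all genes. Stem and progenitor markers were lower in 8 of 10 (median -1.15, none past the threshold; list mean 9.36 to 10.82 in wild type and 8.09 to 10.39 in Sca1-MALT1) and mature B cell markers in 9 of 10 (median -1.02, none past it; 9.36 to 10.04 and 8.15 to 9.27). All 10 plasma cell markers were higher (median 1.94; 8.62 to 9.02 and 10.09 to 11.81), of which Jchain rose by 2.58 (SE 0.27, adjusted p = 0.0163), where 0.044% of all genes rose. Medians of the other lists, in which no gene passed, were 0.59 for T cell, 0.91 for erythroid, -0.81 for neutrophil, -0.47 for macrophage and -0.19 for type 1 dendritic cell markers. The part of these cell types in the members' values was not tested, and in sorted bulk RNA fewer cells of a type and less RNA per cell cannot be told apart.

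Niban3 showed the widest gap between the genotypes of any member. Its single probe set read 10.38, 10.49 and 11.43 in wild-type replicates 1 to 3 and 7.38, 7.93, 7.98, 7.15 and 7.49 in Sca1-MALT1 replicates 1 to 5. Every Sca1-MALT1 array was thus below every wild-type array, and the lowest wild-type value stood 2.4 above the highest Sca1-MALT1 value. The means were 10.77 ± 0.57 (SD, n = 3) and 7.59 ± 0.36 (n = 5), a signal 9.06-fold higher in wild type. Niban3 remained above the array median in all 5 Sca1-MALT1 arrays.

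Cnn3 was the member measured most often, by 6 probe sets. The brightest read 11.57, 11.03 and 11.2 in wild type and 9.43, 9.42, 9.52, 9.26 and 9.7 in Sca1-MALT1. The groups were well apart, with means of 11.26 ± 0.28 (n = 3) and 9.47 ± 0.16 (n = 5) and a signal 3.47-fold higher in wild type. The other Cnn3 probe sets differed by -1.79, -2.14, -1.32, -1.78 and -1.38, and in none of the 6 did the groups overlap. Of the 6, 5 are of the kind (suffix x) whose probes may also bind other transcripts, while the single set without that suffix differed by -1.32. Wild-type replicate 1 was the highest of the 8 arrays in all 6 sets.

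Cyb561a3 and Slc37a2, both carriers in internal membranes, had the smallest differences, with SDs of 0.09 and 0.14 in wild type and 0.17 and 0.13 in Sca1-MALT1. The brightest Cyb561a3 set read 12.05, 12.24 and 12.14 in wild type and 11.2, 10.87, 11.21, 11.3 and 11.07 in Sca1-MALT1, a signal 2.02-fold higher in wild type. Its other sets differed by -0.61, with 0.06 between the nearest arrays of the groups, and by -0.54 at a signal below the array medians. All 3 sets were thus lower without overlap, although the separation of the second one was small. Slc37a2 read 6.93, 7.18 and 6.95 in wild type and 6.12, 5.96, 6.31, 6.02 and 6.06 in Sca1-MALT1. All 3 wild-type arrays were above their array median and all 5 Sca1-MALT1 arrays were below theirs, a range in which the files do not tell signal from background, and a fold is therefore left out.

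The brightest Wdfy4 probe set read 11.2, 10.9 and 10.94 in wild type and 9.75, 9.59, 9.36, 9.81 and 10.21 in Sca1-MALT1. The groups did not overlap, and the signal was 2.41-fold higher in wild type (11.01 ± 0.16, n = 3, and 9.75 ± 0.31, n = 5). The second Wdfy4 set, which read below the array medians in all 8 arrays, had overlapping groups and a difference of 0.09. In type 1 dendritic cells, the cells in which Wdfy4 is best known, the marker list was mixed: 3 of 6 measured markers were lower and 3 higher, and the list mean ran from 7.2 to 7.56 in wild type and from 6.93 to 7.38 in Sca1-MALT1. The list's Xcr1 was below the array medians in both groups, and Clec9a was not measured by a set of its own.

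Capsl and Tmem108 were dim genes. Capsl read 6.37, 5.81 and 6.97 in wild type and 4.11, 4.49, 3.86, 4.27 and 4.86 in Sca1-MALT1. The groups were 0.95 apart, but only 1 wild-type array was above its median, so the difference of -2.06 is one between low signals. Tmem108 read 7.16, 7.39 and 7.0 in wild type and 6.35, 6.2, 5.83, 6.04 and 5.92 in Sca1-MALT1 in its brightest set, a difference of -1.11 that took the signal from above to below the array medians. The other two Tmem108 sets, below the medians in all 8 arrays, had overlapping groups and differences of -0.07 and -0.03.

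Ddx4 had the largest difference of the members, -4.01, and the widest spread. It read 8.91 and 8.69 in wild-type replicates 1 and 2 but 5.98 in replicate 3, and 3.52, 4.17, 4.14, 3.41 and 4.02 in Sca1-MALT1. The groups did not overlap, yet the wild-type SD of 1.63 was the largest of any member, against 0.36 in Sca1-MALT1. Wild-type replicate 3 lay below its array median, on the same side as all 5 Sca1-MALT1 arrays. Without that replicate the difference was -4.95. Of 18 other measured genes of germ cells and the piRNA pathway, 15 were below the array medians in both groups, none passed limma's threshold (0.0879% of all genes did), 1 had an unadjusted p under 0.05 (10.2% of all genes did) and the median difference was -0.1.

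**Figure D1:**
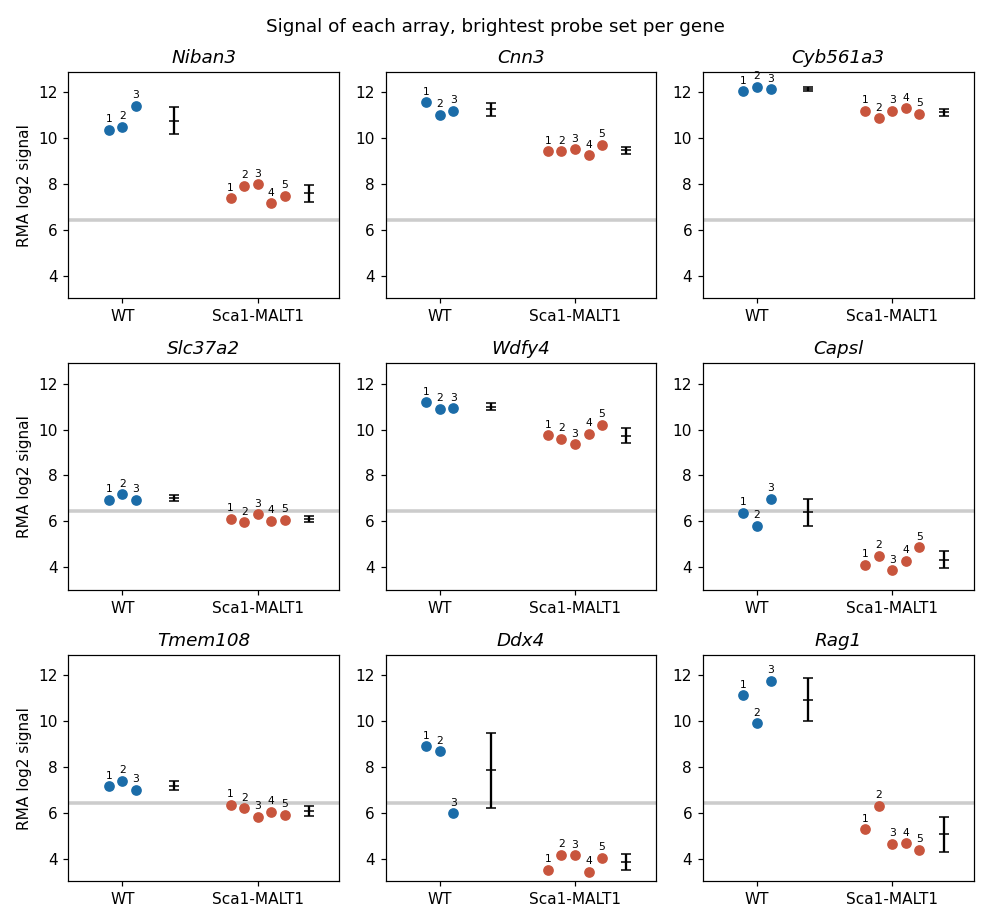
RMA log2 signal (vertical axes) of each array for the brightest probe set of the 8 members and Rag1, wild type in blue and Sca1-MALT1 in red, with numbers giving the replicate, black marks the mean and SD, and the grey band the range of array medians. The groups are apart in each panel, by 2.4 for Niban3 and 0.62 for Slc37a2, and wild-type replicate 3 of Ddx4 reads 5.98 where the other two read 8.91 and 8.69.

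Over all members, 17 of the 18 probe sets had a lower mean in Sca1-MALT1 and in 15 the groups did not overlap. The exceptions to the latter were the dim second set of Wdfy4 and the 2 dim sets of Tmem108. Over all 18193 genes, each by its brightest probe set, 49.3% had a lower mean in Sca1-MALT1 and 2.87% were lower without overlap. These shares count genes and not probe sets, and the choice of the members fixes their own share. In 4 members both group means stayed above the array medians, and in the other 4 the Sca1-MALT1 mean was below them.

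**Figure D2:**
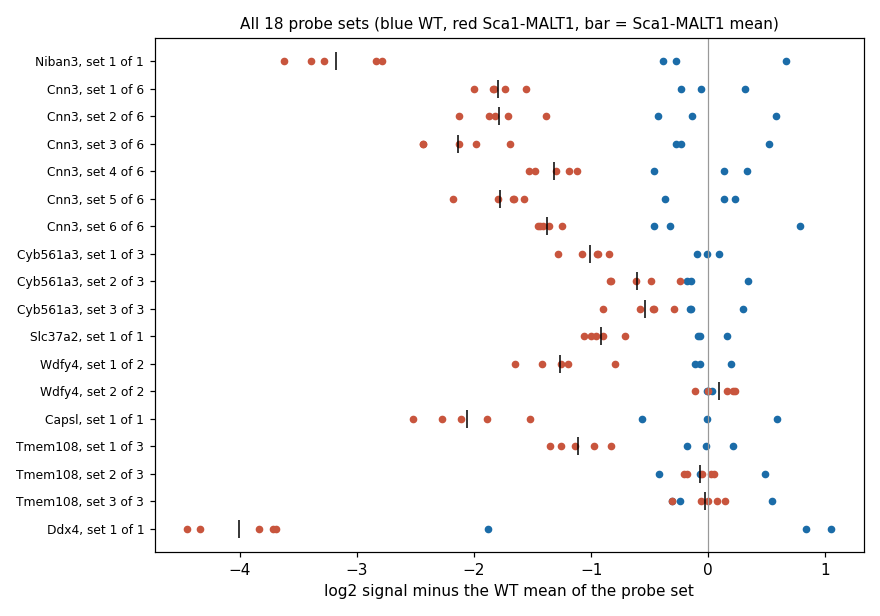
Each of the 18 member probe sets, numbered from the brightest set of the gene, with every array's log2 signal minus the wild-type mean of that set on the horizontal axis (blue wild type, red Sca1-MALT1, black bar the Sca1-MALT1 mean). The 6 Cnn3 sets lie between -2.14 and -1.32, while the second Wdfy4 set stands at 0.09 and the 2 dimmer Tmem108 sets at -0.07 and -0.03.

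Rag1 read 11.13, 9.91 and 11.76 in wild type and 5.28, 6.29, 4.65, 4.67 and 4.37 in Sca1-MALT1. In every Sca1-MALT1 array Rag1 lay below the array median, where the files do not tell signal from background. Over the 8 arrays its signal correlated with Niban3 at Pearson's r = 0.97, with Cnn3 at 0.95, Capsl at 0.94, Tmem108 at 0.93, Cyb561a3 and Slc37a2 at 0.9, Wdfy4 at 0.89 and Ddx4 at 0.85. Spearman's rho was 0.57 to 0.86, and r without wild-type replicates 1 and 3, the arrays farthest from the median of Rag1, was 0.75 to 0.96. The groups do not overlap in Rag1 or in the brightest set of any member, and each was already known to differ between the genotypes. These values therefore restate the difference between genotypes and have no test. For Ddx4, wild-type replicate 3 stood apart from the other wild-type arrays, and r was 0.97 without it. Among 18185 genes ranked by likeness to each member, Rag1 came in place 2 for Niban3, 6 for Cnn3, 11 for Capsl, 17 for Tmem108, 19 for Cyb561a3, 25 for Slc37a2, 59 for Wdfy4 and 182 for Ddx4.

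With each value taken as a difference from its own genotype's mean, the members' r with Rag1 had mixed signs. The r over the 8 arrays was then 0.55 for Niban3 and 0.47 for Capsl, 0.08 for Cnn3 and 0.07 for Tmem108, and -0.2 for Wdfy4, -0.39 for Ddx4, -0.65 for Cyb561a3 and -0.66 for Slc37a2. These values were not tested, and so few arrays cannot show whether the members share a direction with Rag1 within a genotype. Wild-type replicate 3 had the highest Rag1, Niban3 and Capsl signals of the wild-type arrays and the lowest Ddx4 and Tmem108 signals. Sca1-MALT1 replicate 2, with the highest Rag1 value of its group (6.29), was the lowest of all arrays for Cyb561a3 (10.87) and Slc37a2 (5.96). Rag1 and Slc37a2 in Sca1-MALT1 replicate 2 and Ddx4 in wild-type replicate 3 lay below the array median, where signal is not told from background. Between members, the 28 pairs had r from 0.77 to 0.97 as measured (median 0.91), and from -0.74 to 0.57 after the genotype means were taken out (median -0.1), 18 of them below 0.

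**Figure D3:**
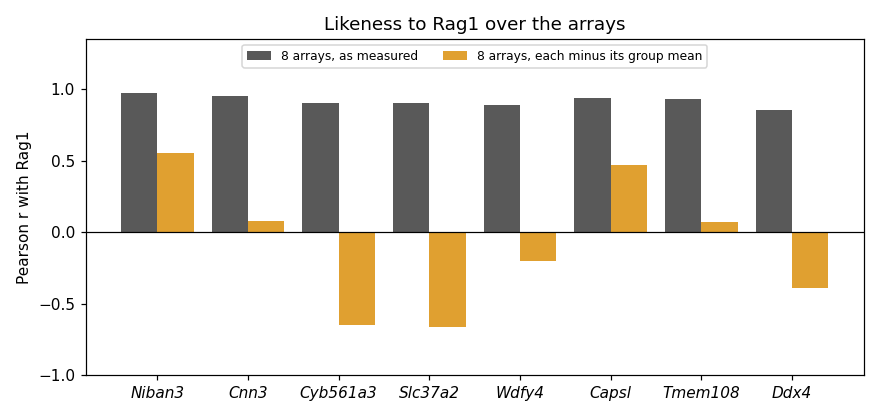
Pearson's r of each member with Rag1 over 8 arrays (vertical axis), as measured (grey) and with each array's value taken minus its genotype mean (yellow). The grey bars run from 0.85 to 0.97, while the yellow bars run from -0.66 for Slc37a2 to 0.55 for Niban3.

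**Figure D4:**
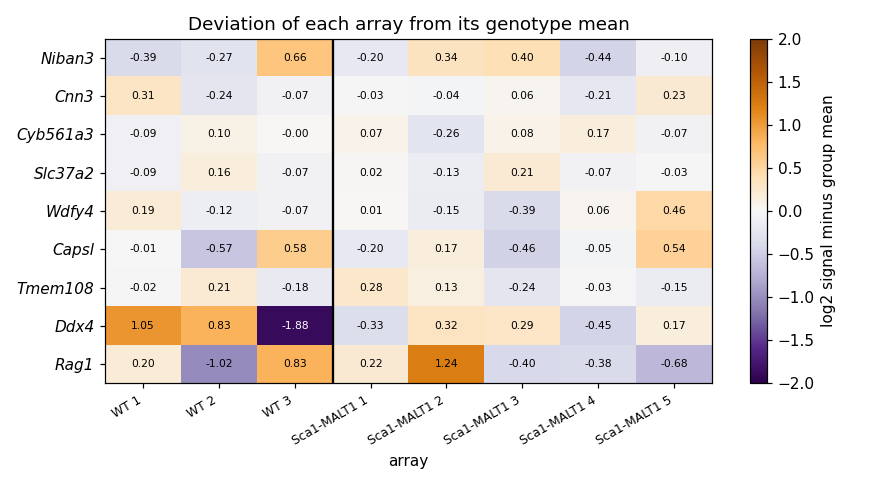
Log2 signal of each array minus its genotype mean (colour and printed value) for the members and Rag1, with arrays in columns and a line between the genotypes. Ddx4 departs most, at 1.05, 0.83 and -1.88 in wild type, and the high Rag1 value of Sca1-MALT1 replicate 2 (1.24) goes with 0.34 for Niban3 and -0.26 for Cyb561a3.

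The genes most like each member over the 8 arrays differed between members. Those nearest to Niban3 were Igll1 (r = 0.98), Rag1 (0.97) and Vpreb1 (0.97), and those nearest to Cnn3 were Rag2 (0.97), Actrt1 (0.97) and Igll1 (0.97). Cyb561a3 was nearest to Acsbg3 (0.97), Igll1 (0.94) and Gm30853 (0.94), and Slc37a2 to Acsbg3 (0.98), Plxnd1 (0.96) and Hormad1 (0.94). Acsbg3, Actrt1, Gm30853 and Hormad1 read below the array medians in both groups and differed by only -0.3 to -0.25. Wdfy4 was nearest to the DNA repair gene Xrcc6 (0.98), Actrt1 (0.96) and 4921525D07Rik (0.96). Capsl was nearest to Smarca4, the ATPase of a chromatin remodeller (0.98), Hes6 (0.97) and Xrcc6 (0.96), with Smarca4 at 11.52 ± 0.19 (n = 3) and 10.66 ± 0.2 (n = 5) and Xrcc6 at 10.6 ± 0.28 (n = 3) and 9.59 ± 0.25 (n = 5). Tmem108 was nearest to Phf5a (0.96), Ndufb3 (0.95) and Kcnd1 (0.95). Ddx4 was nearest to Gm11696 (0.98), the peptide hormone gene Adm (0.97) and Rwdd2b (0.96). Adm had the same wide wild-type spread, at 9.47 ± 1.38 (n = 3) against 7.16 ± 0.29 (n = 5). Early B lineage genes were thus among the 3 nearest for Niban3, Cnn3 and Cyb561a3 and not for the other 5 members. The cut at 3 is arbitrary, and Rag1 came in place 11 for Capsl, 17 for Tmem108 and 25 for Slc37a2. These r values too restate the difference between genotypes, so they do not divide the members into kinds.

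No relative of a member passed the test. Of 69 measured paralogs and pathway genes of the members, 0 passed limma's adjusted threshold, against 0.0879% of all genes, and 4 (5.8%) had an unadjusted p under 0.05, against 10.2% of all genes. That order turned with array weights (17.4% against 14.0%) and in some other fits, so a lower share of changes among the relatives is not shown. They were lower in 33 and higher in 36, with a median difference of 0.01. Niban1 and Niban2, the paralogs of Niban3, differed by 0.1 and -0.24 in limma's fit (adjusted p = 0.943 and 0.793, SE 0.31 and 0.25). The calponin Cnn2, read well above the array medians, differed by -0.04 (SE 0.25, adjusted p = 0.975), while Cnn1, Tagln and Tagln3 were below the array medians in both groups. In the cytochrome b561 family, Cyb561 differed by 1.9 (SE 0.44, adjusted p = 0.239), opposite to Cyb561a3 and without overlap of the groups, and Cybrd1 by 0.25, Cyb561d2 by -0.16 and Frrs1 by -0.24. The exchangers Slc37a1, Slc37a3 and Slc37a4 differed by 0.27, 0.25 and 0.16 (adjusted p from 0.594 to 0.843).

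In the family of Wdfy4, 6 of 10 genes were higher and 4 lower. The BEACH gene Nsmaf differed by 0.62 (adjusted p = 0.391), Lrba by 0.47 and the FYVE genes Wdfy1 and Wdfy2 by 0.62 and -0.64, none past the threshold. Caps2, the relative of Capsl, was below the array medians in both groups and differed by 0.04, and the Tmem108 partners Sh3gl2 and Dst differed by -0.19 and -0.17. Of 8 DEAD-box helicases related to Ddx4, 4 were lower and 4 higher, with Ddx3x, an ubiquitous relative, at 0.31, Ddx41 at -0.14, Ddx21 at -0.21 and Ddx43 at 1.12 (adjusted p = 0.5). Among germ cell genes the lowest p belonged to Tdrd9, at 0.64 (adjusted p = 0.409), followed by Pld6 at -0.53, Tdrkh at -0.52 and Asz1 at -0.23. Genes of endolysosomal iron handling, the setting of Cyb561a3, had a median of -0.01 over 8 genes, with the iron transporter Slc11a2 at 0.45, the transferrin receptor Tfrc at 0.49, Slc11a1 at -0.56 and the ferritin gene Fth1 at 0.09. Genes of glucose 6-phosphate handling, the setting of Slc37a2, had a median of 0.06 over 7 genes, with G6pc3 at 0.38, Pgm1 at 0.26, Hk1 at 0.35 and Hk2 at -0.56.

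**Figure D5:**
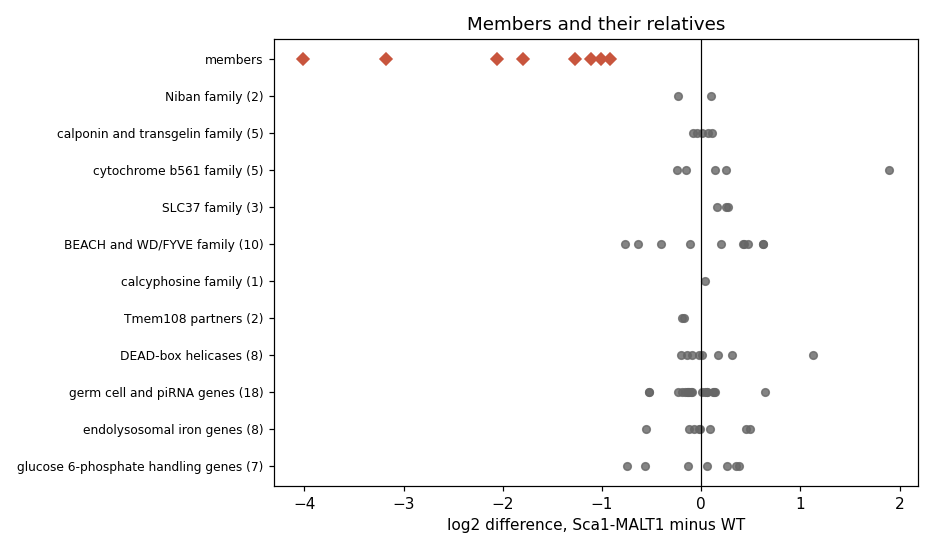
Log2 difference, Sca1-MALT1 minus wild type (horizontal axis), of the 8 members (red diamonds) and of the measured genes of each family or pathway list (grey points, number measured in brackets). The members run from -4.01 to -0.92 because they were chosen so, and the 69 relatives run from -0.77 to 1.9 around a median of 0.01.

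The protein-coding genes next to each member on its chromosome, by the order of starts in RefSeq's table, were read as a further comparison. Of 16 neighbours 14 were measured, 12 of them were lower in Sca1-MALT1 (49.3% of all genes were), none passed limma's adjusted threshold (0.0879% of all genes did), and 3 had an unadjusted p under 0.05 (10.2% of all genes did). The one nearest to the threshold was Bfsp2, a lens filament gene beside Tmem108 on chromosome 9, at 8.29 ± 0.32 (n = 3) and 6.94 ± 0.33 (n = 5), a difference of -1.35 (SE 0.22, limma adjusted p = 0.1) without overlap of the groups. Beside Niban3 on chromosome 8, Colgalt1 differed by -0.67 (SE 0.2, limma adjusted p = 0.322), also without overlap, and Pgls by -0.74 (SE 0.28, limma adjusted p = 0.424). Capsl lies next to Il7r on chromosome 15, the receptor gene on which lymphoid precursors depend, and Il7r read 13.26 ± 0.72 (n = 3) and 13.75 ± 0.32 (n = 5), a difference of 0.5 in the opposite direction (SE 0.32, limma adjusted p = 0.648). Lrrc18 beside Wdfy4 differed by -0.15, and Il31ra and Slc38a9 beside Ddx4 by -0.07 and -0.12. The neighbours of Cnn3 (Alg14 at -0.32, Slc44a3 at -0.09) and of Cyb561a3 (Tmem138 at 0.11, Tkfc at -0.13) had overlapping groups. Of the lower neighbours, only Bfsp2 and Colgalt1 were without overlap of the groups. Slc44a3, Vstm4, Ugt3a2 and Tkfc read below the array medians in both groups. The count of lower neighbours was not tested.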

How the data were processed

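The authors deposited 1 log2 value per probe set and array (45101 probe sets, 8 arrays), which per the submitters' processing notes come from RMA (background correction, quantile normalization and probe set summary). Its version is not given in the sources used here. Values ran from 2.73 to 15.41, as log2 signals do. Values were used as deposited. Of the probe sets, 34945 had 1 gene symbol in the platform annotation, 932 had several, 9160 were not listed and 64 were controls. Symbols were updated through Entrez identifiers with RefSeq (GRCm38.p6), and each gene took its brightest probe set (18193 genes, 18031 matched by identifier). Genotypes were compared with limma 3.58.1 in R 4.3.3 over all 8 arrays, two-sided, with Benjamini-Hochberg adjustment over 18193 genes and a threshold of 0.05. The fit was tested on simulated data. RMA gives no detection call, so no fold is given where a group mean lies below the array medians.

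The members, gene lists and motifs were chosen with earlier results of these data known. Named genes were the members, Rag1 and the 3 genes most like each member by Pearson's r. Up to 4 genes per family or pathway list and up to 3 per marker list were named by unadjusted p. Kit, Xcr1, Clec9a and the chromosomal neighbours were added after their values were seen. Xist, Tagln3 and Ly6a were also named outside this rule. Nothing in the labels says that samples are separate animals, and p-values cover only the spread between samples, which may be technical. The number of arrays limits the precision. Alternatives covered scaling, probe set choice, variance model, weights, threshold, dim genes, a replicate block and the omission of single arrays.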

Additional observations from a re-analysis of the deposited data

How the results depend on the processing

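The direction of the members' differences turned with the choice of probe set (Wdfy4) and under none of the scaling, block, Xist-low or leave-one-out settings tried. With the second brightest probe set Wdfy4 differed by 0.09, Tmem108 by -0.07 and Cyb561a3 by -0.61, and with probe sets of a gene averaged by -0.59, -0.4 and -0.72 in that order; those sets are dim for Wdfy4 and Tmem108. The r with Rag1 turned to -0.51 for Wdfy4 and -0.01 for Tmem108 with the second set, and to -0.65, -0.66, -0.2 and -0.39 for Cyb561a3, Slc37a2, Wdfy4 and Ddx4 with genotype means taken out. Leaving out 1 array at a time gave differences of -3.37 to -2.85 for Niban3, -1.91 to -1.64 for Cnn3, -1.06 to -0.95 for Cyb561a3, -0.98 to -0.84 for Slc37a2, -1.39 to -1.17 for Wdfy4, -2.35 to -1.77 for Capsl, -1.2 to -1.01 for Tmem108, -4.95 to -3.48 for Ddx4 and -6.39 to -5.47 for Rag1.

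Over all genes, 16 passed limma's threshold, 28 with array weights, 8 at an adjusted p of 0.01 and 38 at 0.1. Leaving out 1 array gave 8 to 38 (5 to 10 of them lower), with 10, 38, 8, 24 and 9 without Sca1-MALT1 replicates 1 to 5. The relatives had 0 past the threshold under each setting, with 2.9% to 17.4% of them at an unadjusted p under 0.05, against 7.38% to 14.0% of all genes; their share exceeded that of all genes with array weights, with the block (14.5% against 11.2%), with probe sets averaged (10.1% against 9.94%) and when wild-type replicate 1, wild-type replicate 2 or Sca1-MALT1 replicate 4 was left out. With the replicate number as a block, which leaves Sca1-MALT1 replicates 4 and 5 without a partner, 0 genes passed in limma (2034 at an unadjusted p under 0.05). Arrays of the same number did not deviate together over all genes (r = -0.217, -0.038 and 0.006). A pairing that acts weakly or on few genes would not show in these values, so whether the numbers pair the samples is not known. Xist read 6.2 to 6.58 in all arrays but Sca1-MALT1 replicates 2 and 4. Added after the data were seen, those 6 arrays alone (3 a group) gave 59 genes, 10 lower and 49 higher (8 and 8 with all arrays), and differences of -3.15 for Niban3 and -3.97 for Ddx4.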
